A study of Ovis aries with 6 samples.

Results

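Chaperones and the folding enzymes of the endoplasmic reticulum (ER) were followed in RNA from the cells of sheep milk. The genes were taken by symbol: the HSP families (HSPA, HSPB, HSPD, HSPE, HSPH and HSP90), the DNAJ family, the PDIA disulfide isomerases, CCT2 to CCT8 with TCP1, CALR, CANX and the FKBP family. Each gene entered by its transcript of highest mean level. The rule took 72 of the 11285 genes with a symbol in the table, in 90 rows, and 54 of the 72 reached the mean of 1 RPKM (reads per kilobase of transcript, scaled to the library total) required for a test. Another 29 symbols that fit the rule had no matched row, HSP90AA1, HSPD1, HSPB1, PDIA4 and FKBP5 among them, and are not analysed here.

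The milk came from 3 Comisana ewes. For the control group the ewes ate hay and a commercial concentrate for 3 weeks. For the linseed group the same ewes then ate grass, hay and a concentrate with 20% extruded linseed by dry matter for a further 3 weeks, so each group holds 1 library of each of the 3 sheep. Linseed always came second, so diet and time between samplings cannot be told apart. Day 90 of lactation is given for both groups, though by this feeding order their samplings were weeks apart. The cells were whatever could be pelleted from milk, a mixture of shed mammary epithelium and immune cells, and in such bulk RNA fewer cells of a type and less RNA per cell cannot be told apart.

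Chaperones bind proteins that have not yet folded and keep them from clumping. HSP70 proteins hold and release their clients with ATP, J-domain proteins (the DNAJ genes) bring clients to them and trigger that ATP use, and HSP90 acts later, on clients that are nearly folded. In the ER a separate set works on secreted and membrane proteins: HSPA5 (BiP) and HSP90B1 (GRP94) are its HSP70 and HSP90, calnexin and calreticulin hold proteins that carry sugar chains, PDIA enzymes form disulfide bonds, and FKBP enzymes turn peptide bonds at proline. A mammary cell in lactation secretes large amounts of casein and whey protein through this compartment, and a shortage of folding capacity there sets off the unfolded protein response, which raises HSPA5 and its partners.

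The libraries held 4941935 reads (linseed sheep 1) to 22644050 reads (control sheep 1), as solved from the steps in the RPKM values, and the least covered tested member, FKBP7, had 105 reads over the 6 libraries. The libraries differed in milk protein RNA and in marker genes of cell types, in part by sheep and in part along with the diet. Milk protein transcripts took 58.9%, 40.6% and 7.85% of all RPKM in control sheep 1, 2 and 3, and 34.9%, 28.9% and 1.88% in their linseed libraries, so both libraries of sheep 3 were low. The 6 matched epithelial markers of 13 listed summed to 405 to 862 RPKM in control and to 95.3 to 872 in linseed libraries, with a median log2 change (linseed minus control) of -0.78. EPCAM, ELF5 and CD24 were lower with linseed in all 3 sheep, and CD24 fell with the sheep as a block (adjusted p = 0.0461 in limma, 0.263 without the block). KRT14 was higher in all 3, and KRT8 made up most of the sum in linseed sheep 1 and 2. The 6 matched neutrophil markers of 12 summed to 422 to 954 RPKM in control and, above all of these, to 2314 to 3187 with linseed, with MMP8 at 0 throughout. S100A8 and S100A9 made up most of these sums. Of the 5 tested, 4 were higher with linseed in all 3 sheep, as were 23.0% of all tested transcripts, while FCGR3A was lower in sheep 2 and 3. The 9 matched macrophage markers of 14 summed to 94.9 to 567 and, again higher, to 779 to 1399 RPKM. CD68 and TREM2 made up most of that sum, and TREM2 rose with the sheep as a block (adjusted p = 0.0401 in limma, 0.263 without the block). MRC1, ITGAM and ITGAX were lower in all 3 sheep, and over the list the median was -0.14. The 8 matched T and NK cell markers of 15 summed to 9.54 to 687 and 73.3 to 173 RPKM. The 12 matched B and plasma cell markers of 14 summed to 176 to 236 and 56.4 to 215 RPKM, most of it XBP1, with TNFRSF17 at 0, and the 3 matched dendritic cell markers of 8 to 0.490 to 40.2 and 7.02 to 28.1. How far these differences enter the changes below was not tested.

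Across all 54 tested members, no gene passed an adjusted p of 0.05 in limma without a block for the sheep, and the smallest adjusted p was 0.263. That matches the background, where 0 of 15891 tested transcripts (0%) passed. At an unadjusted p under 0.05, DNAJC22, FKBP2 and HSPBP1 were higher with linseed and HSPA5, HSPA13 and DNAJB9 lower, 5.56% of members in each direction against 8.50% (higher) and 7.00% (lower) of all tested transcripts. With the sheep as a block, 1 member passed: DNAJC22 rose, with an adjusted p of 0.0441 in limma. That is 1.85% of the members, where the same fit called 2.62% of all tested transcripts, 1.28% higher and 1.34% lower.

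The median log2 change of the members (linseed minus control, on the log2(RPKM + 1) scale throughout) was -0.33, and that of all tested transcripts was -0.12. The 3 sheep did not share this median: it was -0.29 in sheep 1, -0.45 in sheep 2 and 0.41 in sheep 3, where the medians of all tested transcripts were 0.02, 0.03 and -0.22. So the members lay below the whole in sheep 1 and 2 and above it in sheep 3. The median was 0.12 without linseed sheep 1, the shallowest of the 6 libraries, and between -0.53 and -0.16 without any other single library. Without both libraries of sheep 1 it stayed negative, at -0.16. Members took 0.558%, 0.564% and 0.741% of all RPKM in control sheep 1, 2 and 3, and 0.176%, 0.400% and 0.765% in their linseed libraries. Of the RPKM outside milk proteins they took 1.36%, 0.950% and 0.804% in control and 0.270%, 0.562% and 0.780% with linseed. That share was lower with linseed in each sheep.

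**Figure D1:**
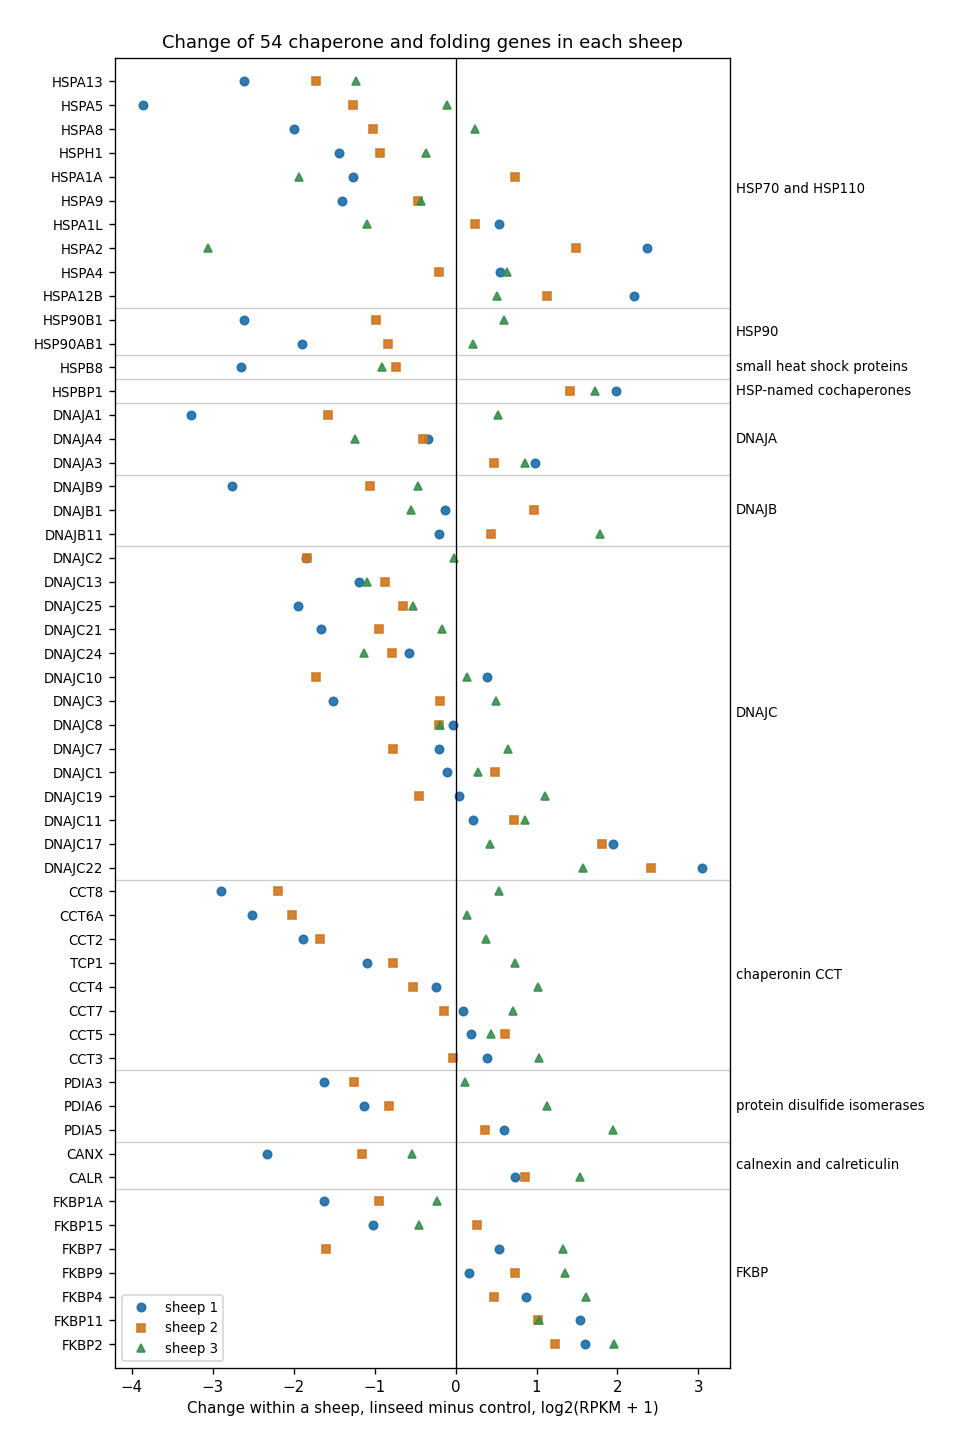
Change within each sheep (x axis, linseed minus control, log2(RPKM + 1)) for the 54 tested members, grouped by role and sorted within a role; circles are sheep 1, squares sheep 2 and triangles sheep 3. The triangles of sheep 3 lie to the right of the other marks for HSP90, most CCT subunits and the disulfide isomerases, while HSPA5, HSPA13, DNAJB9 and CANX lie left of 0 in all 3 sheep.

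Counted by direction, 13 members were higher with linseed in all 3 sheep (24.1%, against 23.0% of all tested transcripts) and 15 were lower in all 3 (27.8%, against 26.2%). A further 13 members were lower with linseed in the first pair of sheep and higher in the last (24.1%, against 9.51% of all tested transcripts), a pattern picked out after the values were seen. These were HSPA8, HSP90AB1, HSP90B1, DNAJA1, DNAJC3, DNAJC7, CCT2, CCT4, CCT6A, CCT8, TCP1, PDIA3 and PDIA6. In 9 members every linseed library lay above every control library (16.7%, against 13.3% of all), and in 4 every linseed library lay below (7.41%, against 7.83%). Fewer libraries have to be cleared when 1 is left out. Without linseed sheep 1 the first count was 14 (25.9%, against 18% of all). The second was 7 (13%, against 9.80%) without linseed sheep 2 and 22 (40.7%, against 27.9%) without linseed sheep 3.

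HSP70 and its relatives hold the most abundant member. HSPA8, the constitutive HSP70 of the cytosol, had the highest mean of all members, 968 RPKM, and ranked 118th of all tested transcripts by mean level. Its levels were 1072, 1523 and 1005 RPKM in control sheep 1, 2 and 3 and 268, 750 and 1190 RPKM in their linseed libraries. Linseed sheep 1 and 2 lay below every control library and linseed sheep 3 between them, so the groups overlapped. The log2 change was -0.93 ± 0.68 (SE), with an adjusted p of 0.503 in limma.

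HSPA5 (XM_004005637.2), the HSP70 of the ER and the sensor-bound chaperone of the unfolded protein response, stood at 921, 392 and 198 RPKM in control sheep 1, 2 and 3. In the linseed libraries of the same sheep it stood at 62.3, 162 and 183 RPKM. Every linseed library lay below every control library, with means of 504 ± 374 RPKM (SD, n = 3) in control and 136 ± 64.6 in linseed. The difference was very unequal between sheep: -3.86 in sheep 1, -1.27 in sheep 2 and -0.11 in sheep 3 on the log2 scale. The fitted log2 change was -1.75 ± 0.73 (SE), with an unadjusted p of 0.036 and an adjusted p of 0.297 in limma, and 0.144 with the sheep as a block. Without both libraries of sheep 1 the log2 change was -0.69.

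Among control libraries HSPA5 was highest in sheep 1 and lowest in sheep 3, the same order as the milk protein share. With linseed that order was turned over, since sheep 1 then had the largest milk protein share and the lowest HSPA5. The order of the sheep was thus that of milk protein in the controls and the reverse of it with linseed.

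HSPA13 (STCH), a small microsomal HSP70 relative, was at 7.14, 7.52 and 12.1 RPKM in control sheep 1, 2 and 3, and at 0.335, 1.58 and 4.57 RPKM with linseed. Each linseed library lay below every control library and each sheep was lower with linseed. The log2 change was -1.85 ± 0.66 (SE), the lowest of the members, with an adjusted p of 0.266 in limma and 0.0594 with the sheep as a block. Its transcript is 4227 nt long, and transcripts over 4000 nt were lower with linseed as a whole, with a median log2 change of -0.49 against 0.57 for those under 1000 nt. Corrected for length, the log2 change of HSPA13 was -1.48.

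HSPA9, the mitochondrial HSP70, was also lower in every linseed library than in every control library (control 48.9 to 71.4 RPKM, linseed 26.4 to 46.9 RPKM), with a log2 change of -0.76 ± 0.58. Its transcript is 4100 nt long, and corrected for length the log2 change was -0.40. HSPH1, the HSP110 that exchanges nucleotide on HSP70, was lower in each of the 3 sheep, with a log2 change of -0.91 ± 0.62. HSPA12B, a distant HSP70 relative, went the other way: 0.221, 1.44 and 4.11 RPKM in control sheep 1, 2 and 3 and 4.65, 4.35 and 6.27 RPKM with linseed, with no overlap and a log2 change of 1.28 ± 0.64. None of these passed the test.

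HSPA1A and DNAJB1, both of the heat shock response, kept no single direction over the 3 sheep. HSPA1A, an HSP70 that heat and other stress induce, was at 233, 168 and 336 RPKM in control sheep 1, 2 and 3 and at 95.7, 282 and 87.6 RPKM with linseed. DNAJB1, its J-domain partner in the heat shock response, was at 78.2, 125 and 103 RPKM in control and at 71.6, 246 and 69.9 RPKM with linseed. Linseed sheep 2 was the highest linseed library for both genes, and sheep 2 was the only sheep in which both were higher with linseed. HSPA2 was at 27.1 RPKM in control sheep 3 and at 0.841 to 13.2 RPKM in the other libraries. HSPA1A, HSPA1L, HSPA2 and HSPA8 have similar sequences, so how the authors divided shared reads can move their values. Over the 10 tested HSP70 and HSP110 genes the median log2 change was -0.79, with 4 genes lower and 1 higher in all 3 sheep. Of all tested transcripts, 26.2% were lower and 23.0% higher in all 3.

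The HSP90 pair split by sheep. HSP90AB1, the cytosolic HSP90, was at 359, 381 and 311 RPKM in control sheep 1, 2 and 3 and at 95.5, 213 and 360.4 RPKM with linseed. HSP90B1, its ER counterpart, was at 252, 239 and 174 RPKM in control and at 40.4, 121 and 263 RPKM with linseed. For both genes linseed sheep 1 was the lowest library, and linseed sheep 3 reached or passed the control range. The log2 changes were -0.84 ± 0.65 and -1.0 ± 0.73 (SE), with adjusted p values of 0.525 and 0.503 in limma.

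**Figure D2:**
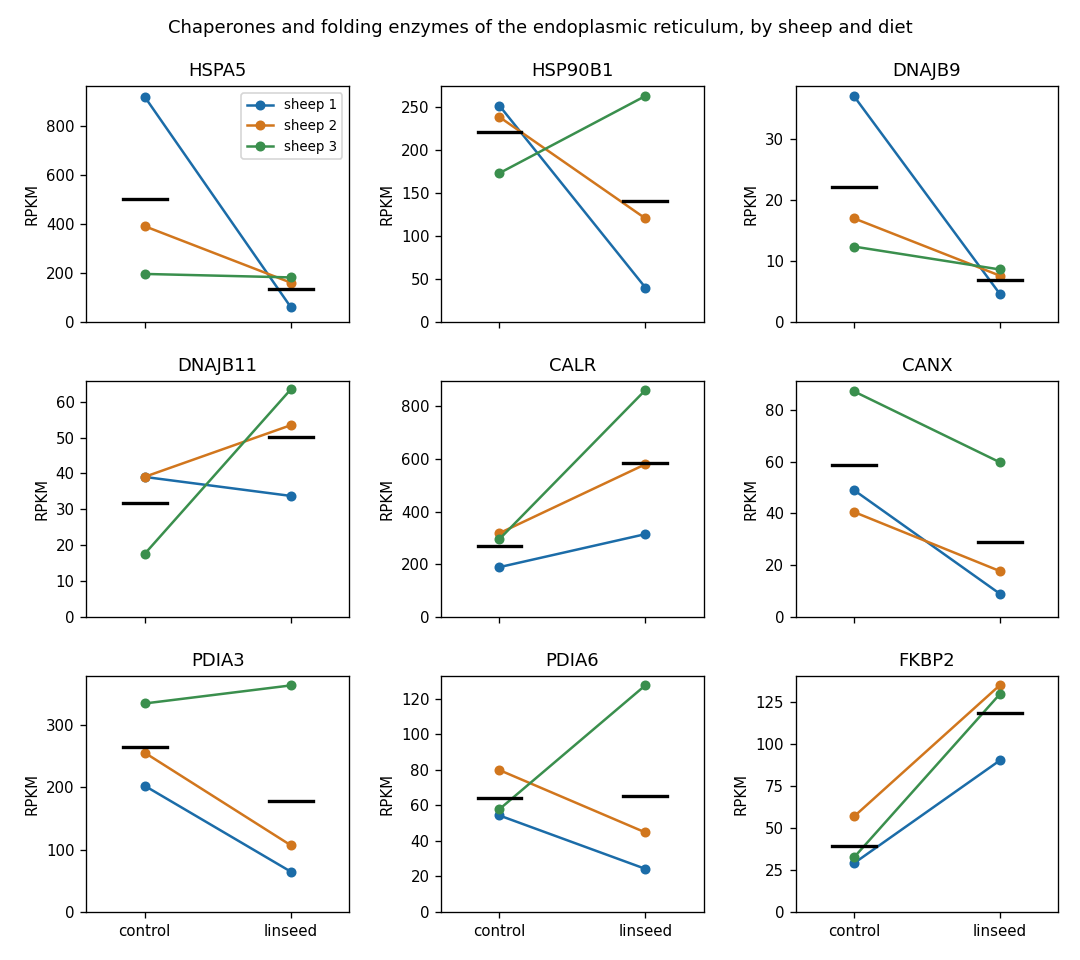
RPKM of 9 ER chaperones and folding enzymes (y axes, each from 0) in the control and the linseed library of each sheep; lines join the libraries of a sheep and black bars are group means (n = 3). HSPA5, DNAJB9 and CANX run downward in all 3 sheep, CALR and FKBP2 upward in all 3, and HSP90B1, PDIA3 and PDIA6 downward in sheep 1 and 2 and upward in sheep 3.

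Among the J-domain proteins the largest difference of any member was that of DNAJC22 (XM_004006380.3), a J protein that spans the membrane several times. It was at 1.16, 2.30 and 3.98 RPKM in control sheep 1, 2 and 3 and at 16.7, 16.7 and 13.9 RPKM with linseed. The linseed libraries all stood above the controls and close to one another, with means of 2.48 ± 1.42 RPKM (SD, n = 3) in control and 15.8 ± 1.62 in linseed. The log2 change was 2.35 ± 0.58 (SE), and limma gave an adjusted p of 0.263 without the sheep as a block and 0.0441 with them. The changes in sheep 1, 2 and 3 were 3.04, 2.42 and 1.58. With a correction for transcript length added to the block, the adjusted p was 0.0944.

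The ER J proteins moved apart. DNAJB9 (ERdj4), which helps HSPA5 hold the stress sensor IRE1 inactive, was at 37.02, 17.0 and 12.4 RPKM in control sheep 1, 2 and 3 and at 4.61, 7.62 and 8.65 RPKM with linseed. Every linseed library lay below every control library, with a log2 change of -1.43 ± 0.62 (SE; adjusted p = 0.308 in limma). DNAJB11 (ERdj3), which hands unfolded clients to HSPA5, was at 39.0, 39.1 and 17.6 RPKM in control and at 33.8, 53.4 and 63.4 RPKM with linseed, with overlap and a log2 change of 0.68 ± 0.61. Within a library the ratio of DNAJB11 to DNAJB9 came to 1.05, 2.30 and 1.42 in the controls of sheep 1, 2 and 3. In their linseed libraries it came to 7.32, 7.01 and 7.33, above every control. This pair was set side by side after the values were seen.

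DNAJC3 (p58IPK), an ER J protein that also restrains the kinases that slow translation, was at 92.2, 48.0 and 21.9 RPKM in control sheep 1, 2 and 3 and at 31.8, 41.8 and 31.4 RPKM with linseed. The control libraries followed the same order as for HSPA5, with sheep 1 highest and sheep 3 lowest, while the linseed libraries had no such order. DNAJC10 (ERdj5), a reductase of the ER, stayed between 1.26 and 6.47 RPKM in all 6 libraries.

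In the cytosol, DNAJA1, a main partner of HSPA8, was at 131, 141 and 95.0 RPKM in control sheep 1, 2 and 3 and at 12.7, 46.9 and 137 RPKM with linseed. Sheep 1 and 2 were lower with linseed and sheep 3 higher, as for HSPA8, and the log2 change was -1.44 ± 0.81 with an adjusted p of 0.393. DNAJA3, the J protein of mitochondria, had control values of 6.02 to 10.00 RPKM and linseed values of 11.3 to 19.0 RPKM, without overlap. DNAJC17, a J protein of the nucleus, was at 2.99, 4.26 and 1.99 RPKM in control and at 14.3, 17.5 and 3.04 RPKM with linseed, higher in each sheep but with linseed sheep 3 inside the control range. DNAJC2, DNAJC13, DNAJC21, DNAJC24, DNAJC25 and DNAJC8 were lower in all 3 sheep, and their log2 changes lay between -1.24 and -0.14. Another DNAJC24 transcript of nearly the same mean (2.71 against 2.73 RPKM) had a log2 change of -0.57 but was higher in sheep 3, by 0.40. Over the tested J proteins the median log2 change was -0.66 for the 3 DNAJA genes, 0.10 for the 3 DNAJB genes and -0.27 for the 14 DNAJC genes. The DNAJB median turned to -0.50 with milk proteins left out of the library totals and to -0.39 with quantile normalization.

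HSPBP1, a factor that strips nucleotide from HSP70, was at 3.86, 6.34 and 4.62 RPKM in control sheep 1, 2 and 3 and at 18.2, 18.5 and 17.6 RPKM with linseed. The linseed libraries lay close together, all of them above the controls. The log2 change was 1.70 ± 0.55 (SE), with an unadjusted p of 0.0104, an adjusted p of 0.263 in limma and 0.0689 with the sheep as a block. HSPB8, the only small heat shock protein tested, acts with BAG3 in clearing aggregates. It was at 9.19, 13.7 and 3.46 RPKM in control and at 0.627, 7.78 and 1.38 RPKM with linseed, lower in each sheep, with overlap and an adjusted p of 0.373.

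**Figure D3:**
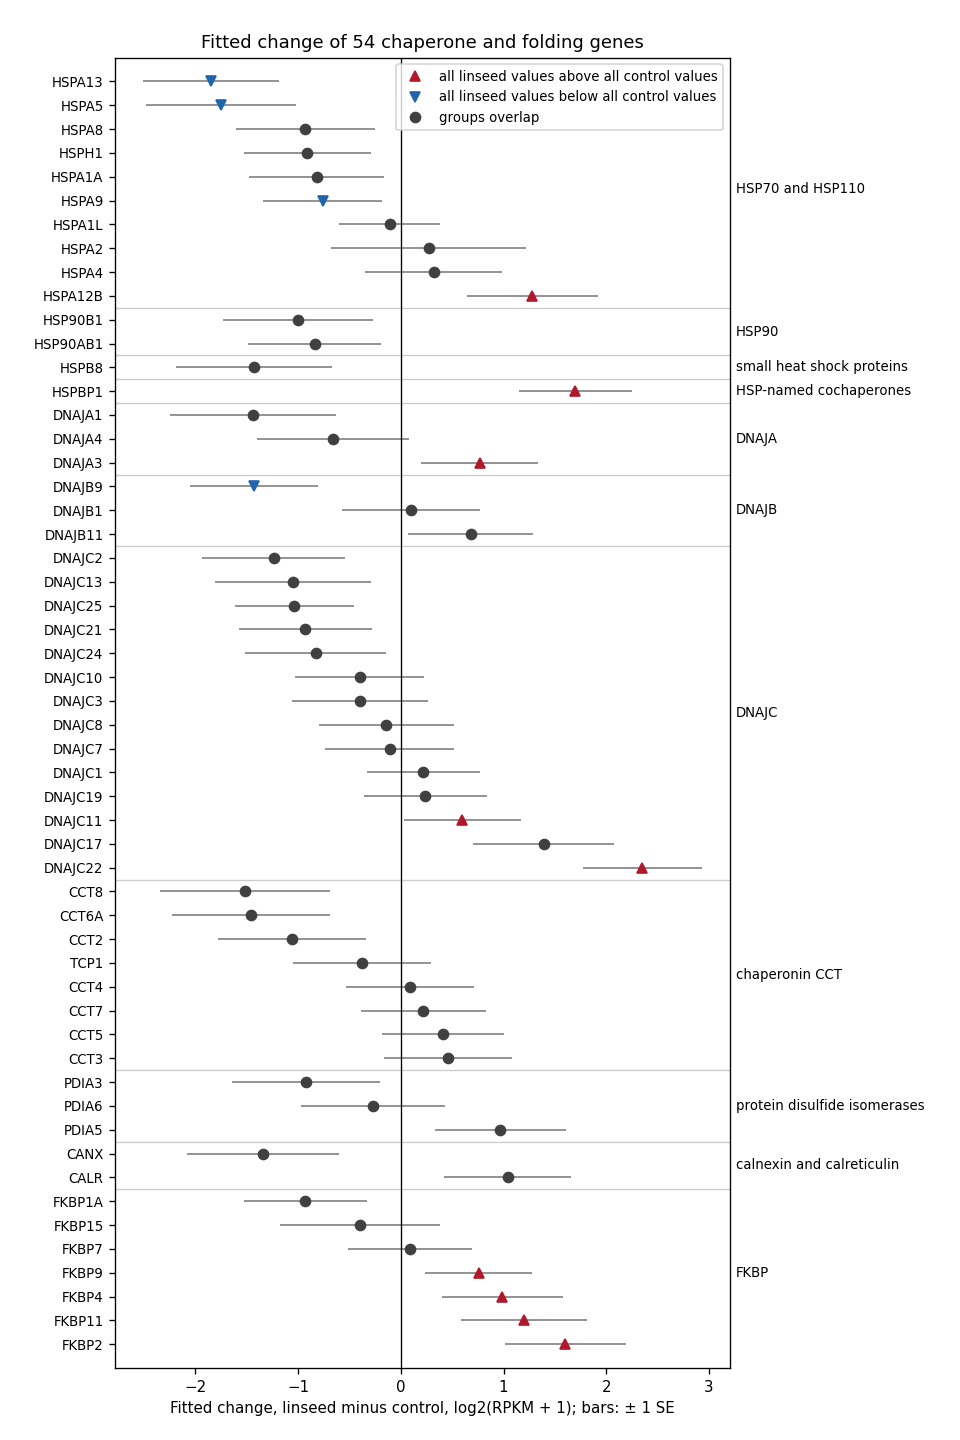
Fitted log2 change with its standard error (x axis, linseed minus control, log2(RPKM + 1), bars ± 1 SE, n = 3 per group) for the 54 tested members by role. Upward triangles are the 9 members with every linseed value above every control value, downward triangles the 4 with every linseed value below, and circles the members whose groups overlap.

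The chaperonin CCT is a double ring in which each of its subunits, TCP1 and CCT2 to CCT8, takes a fixed place, and it folds actin and tubulin. In the control libraries the 8 tested subunit genes stayed close together: the ratio of the highest to the lowest subunit was 2.09, 3.24 and 1.65 in sheep 1, 2 and 3. In the linseed libraries of the same sheep it was 12.5, 9.05 and 3.07. The ratio was larger with linseed in each sheep, and only linseed sheep 3 fell inside the control range. The comparison of ratios was chosen after the values were seen.

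Part of the subunits carried this spread. CCT8 was at 62.3, 107 and 63.9 RPKM in control sheep 1, 2 and 3 and at 7.50, 22.4 and 93.1 RPKM with linseed. CCT6A was at 35.4, 49.1 and 46.6 RPKM in control and at 5.40, 11.4 and 51.5 RPKM with linseed, and CCT2 at 61.1, 96.8 and 72.5 and at 15.8, 29.7 and 94.9 RPKM. For all 3 genes linseed sheep 1 and 2 lay below every control library while linseed sheep 3 did not. The log2 changes were -1.52 ± 0.83 for CCT8, -1.46 ± 0.77 for CCT6A and -1.06 ± 0.72 for CCT2, and their smallest adjusted p in limma was 0.373. TCP1 had the same order of libraries with a smaller log2 change of -0.38 ± 0.67. It was at 54.35, 80.82 and 67.03 RPKM in control sheep 1, 2 and 3 and at 24.85, 47.02 and 111.8 RPKM with linseed.

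CCT3, the most abundant subunit gene, was at 51.5, 105 and 77.1 RPKM in control sheep 1, 2 and 3 and at 67.7, 103 and 158 RPKM with linseed. CCT5 was at 29.8, 32.8 and 49.4 RPKM in control and at 34.3, 50.5 and 67.2 RPKM with linseed. For CCT3, CCT4, CCT5 and CCT7 the log2 changes lay between 0.09 and 0.46, each smaller than its SE, and all 4 turned negative (-0.51 to -0.14) with milk proteins left out of the totals. CCT4 and CCT7 were negative with quantile normalization as well, at -0.23 and -0.11. The ratio of CCT3 to CCT8 within a library, which no scaling of a library moves, came to 0.826, 0.990 and 1.21 in the controls of sheep 1, 2 and 3, and in their linseed libraries to 9.03, 4.61 and 1.70. These are the subunits with the highest and the lowest log2 change. The pair was set side by side after the values were seen, so a separation was built into the choice, and the ratio was not tested. All 8 transcripts are 1889 to 2496 nt long, and corrected for length the log2 change of CCT8 was -1.55.

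**Figure D4:**
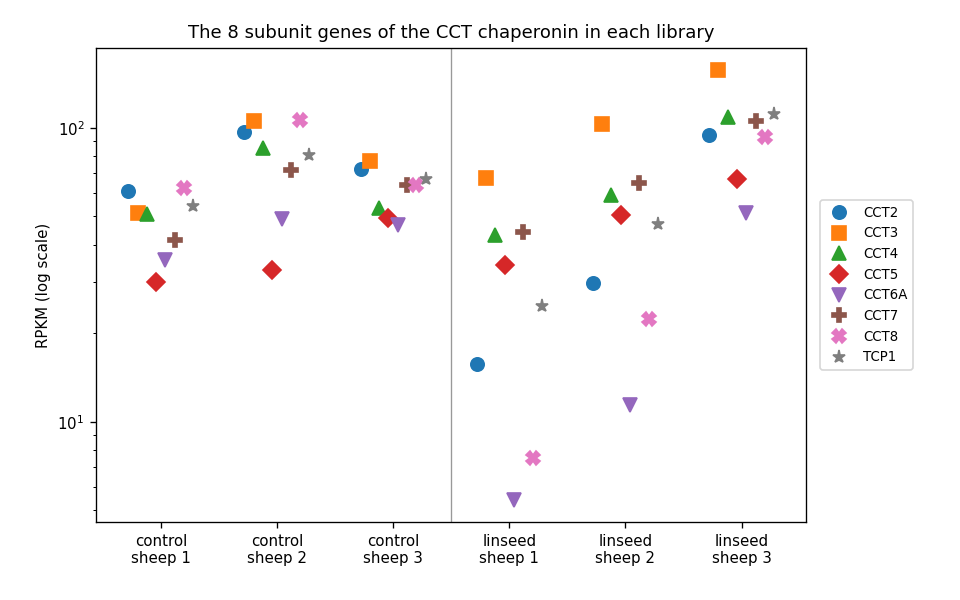
RPKM (y axis, log scale) of the 8 tested CCT subunit genes in each of the 6 libraries, 1 mark per gene. The marks lie within a factor of 1.65 to 3.24 in the control libraries and spread to 12.5 and 9.05 in linseed sheep 1 and 2, where CCT6A, CCT8 and CCT2 are the lowest.

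Calreticulin and calnexin, the soluble and the membrane-bound lectin of the same folding cycle, moved in opposite directions in every sheep in the RPKM values as deposited. CALR (XM_004008484.3) was at 190, 319 and 296 RPKM in control sheep 1, 2 and 3 and at 315, 580.2 and 862 RPKM with linseed. CANX (XM_015095730.1) was at 49.0, 40.5 and 87.1 RPKM in control and at 8.97, 17.7 and 59.7 RPKM with linseed. Each gene overlapped between groups: linseed sheep 1 for CALR and linseed sheep 3 for CANX lay inside the control range. The log2 changes were 1.04 ± 0.62 (SE) for CALR and -1.34 ± 0.74 for CANX, with adjusted p values of 0.418 and 0.390 in limma.

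Within a library the ratio of CALR to CANX came to 3.88, 7.86 and 3.40 in the controls of sheep 1, 2 and 3, and in their linseed libraries to 35.1, 32.7 and 14.4. The linseed ratios all exceeded the control ratios. The CANX transcript is 4310 nt and the CALR transcript 1915 nt, and after correction for length the changes were -0.95 for CANX and 1.02 for CALR. CALR was also compared with HSPA5, and the ratio was 0.206, 0.812 and 1.5 in control and 5.06, 3.58 and 4.70 with linseed. Both ratios were chosen after the values were seen and were not tested.

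The disulfide isomerases showed no shared direction. PDIA3 (ERp57), which works with calnexin and calreticulin, was at 202, 255 and 334 RPKM in control sheep 1, 2 and 3 and at 64.7, 107 and 363 RPKM with linseed. PDIA6 (P5), which works with HSPA5, was at 54.3, 79.9 and 57.9 RPKM in control and at 24.3, 44.8 and 128 RPKM with linseed. PDIA5 was at 4.88, 12.04 and 4.76 RPKM in control and at 7.88, 15.7 and 21.2 RPKM with linseed. Sheep 3 had the highest linseed value for all 3 genes, and PDIA5 alone was higher in each sheep, with a log2 change of 0.97 ± 0.64 (SE; adjusted p = 0.457 in limma).

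The FKBP genes had the highest median of the families with more than 1 tested gene, a log2 change of 0.76 over 7 genes, and 4 of them (FKBP2, FKBP4, FKBP9 and FKBP11) had every linseed library above every control library, where 13.3% of all tested transcripts did. FKBP2 (FKBP13), a secretory pathway enzyme, was at 29.1, 56.9 and 32.6 RPKM in control sheep 1, 2 and 3 and at 90.3, 135 and 129.8 RPKM with linseed. The 3 linseed libraries cleared the highest control, and the log2 change was 1.60 ± 0.59 (SE), with an unadjusted p of 0.0201, an adjusted p of 0.273 in limma and 0.0990 with the sheep as a block. FKBP11 (FKBP19), another secretory pathway enzyme, was at 31.1, 55.7 and 76.7 RPKM in control and at 92.3, 114 and 158 RPKM with linseed, again without overlap, with a log2 change of 1.20 ± 0.61.

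FKBP4 (FKBP52), an HSP90 partner in the cytosol, was at 30.0, 52.0 and 35.8 RPKM in control sheep 1, 2 and 3 and at 55.7, 73.0 and 111 RPKM with linseed. FKBP1A (FKBP12), the target of the drug FK506, was lower in each sheep, at 97.7, 70.8 and 87.2 RPKM in control and 31.2, 36.4 and 74.0 RPKM with linseed, with linseed sheep 3 inside the control range. FKBP2, FKBP11 and FKBP1A are all short, at 623, 748 and 727 nt, so the higher medians of short transcripts with linseed apply to all 3. Corrected for length, the log2 change of FKBP2 was 1.08 and the median of the FKBP genes 0.74. With milk proteins left out of the totals the FKBP median was 0.37. In that setting 3 of all 54 tested members lay above without overlap (5.56%, against 7.23% of all tested transcripts), so not all 4 FKBP genes did.

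The 18 members below 1 RPKM were DNAJB4, DNAJB7, DNAJB8, DNAJB13, DNAJB14, DNAJC6, DNAJC12, DNAJC16, DNAJC27, DNAJC30, FKBP1B, FKBP6, FKBP10, FKBP14, HSPA4L, HSPB3, HSPBAP1 and CCT6B. DNAJB8 was listed at 0 in every library and FKBP6 came to 1 read over the 6 libraries. FKBP14, an ER collagen enzyme, was at 1.90 RPKM in control sheep 1 and at or below 0.229 RPKM in the other libraries. Of the members, 12 had more than 1 transcript in the table, and with the transcripts of a gene summed the log2 change of HSPA1L moved from -0.11 to 0.12.

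Other genes of folding and of the ER were read from 7 lists, and no gene of any list passed without the block. Among the 8 tested of 16 sensors and transcription factors of the unfolded protein response the median log2 change was -0.85. By sheep the median was unequal, at -1.83, -0.35 and -0.10 in sheep 1, 2 and 3. EIF2AK3 (PERK), the sensor kinase that slows translation, was at 3.25, 0.482 and 7.53 RPKM in control sheep 1, 2 and 3 and was listed at 0, 0.189 and 0.498 RPKM with linseed, with an adjusted p of 0.286. CEBPB, a transcription factor with roles well beyond this response, was at 13, 14.9 and 74.7 RPKM in control and at 65.3, 94.6 and 38.8 RPKM with linseed, with an adjusted p of 0.405. It was the 1 gene of the 8 with a positive change.

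The 13 tested of 26 other ER cochaperones and effectors had a median of 0.08. PPIB (cyclophilin B), the ER cyclophilin, was at 115, 377 and 216 RPKM in control sheep 1, 2 and 3 and at 588, 612 and 544 RPKM with linseed, without overlap, with an adjusted p of 0.305. HYOU1 (GRP170), the large HSP70 relative that exchanges nucleotide on HSPA5, was at 14.3, 3.55 and 4.97 RPKM in control and at 0.266, 1.21 and 7.42 RPKM with linseed. It was highest in control sheep 1, as HSPA5 was.

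Of the 17 tested of 29 genes of N-glycan control and ER-associated degradation, HERPUD2, a ubiquitin-like membrane protein, fell with the sheep as a block, with an adjusted p of 0.0461 in limma and 0.266 without the block. It was at 12.9, 13.4 and 63.9 RPKM in control sheep 1, 2 and 3 and at 2.70, 2.73 and 9.78 RPKM with linseed, below every control library, with a log2 change of -2.15 ± 0.76. With a correction for length added to the block, its adjusted p was 0.0975. EDEM3, a mannosidase that marks misfolded glycoproteins, was also lower in every linseed library, at 7.92, 3.21 and 13.2 RPKM in control and 1.12, 0.876 and 3.06 RPKM with linseed. The list as a whole had 5 genes above and 4 below without overlap, where 13.3% and 7.83% of all tested transcripts were, and a median of -0.28.

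The 14 tested of 23 HSP70 and HSP90 cochaperones and heat shock factors had a median of -0.28. BAG6, which guards proteins bound for membranes, was at 17.2, 12.5 and 20.5 RPKM in control sheep 1, 2 and 3 and at 44.0, 47.9 and 48.4 RPKM with linseed. CDC37, which brings kinases to HSP90, was at 45.3, 47.8 and 53.4 RPKM in control and at 138, 150.2 and 113 RPKM with linseed. Neither gene overlapped between groups, and both were higher by a log2 change near that of HSPBP1 (1.46 and 1.43). With the transcripts of a gene summed, the log2 change of BAG6 was 0.68.

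The 14 tested of 24 genes of the ER translocon and signal peptidase had a median of -0.80, with 6 lower and 3 higher in all 3 sheep, where 26.2% and 23.0% of all tested transcripts were. By sheep the median was -1.37, -0.81 and 0.17 in sheep 1, 2 and 3. SRP9 and SRP14, which form 1 unit of the signal recognition particle, had log2 changes of -1.61 and -1.84, with adjusted p values of 0.298 and 0.291. The 11 tested of 14 prefoldin and CCT cofactor genes had a median of 0.07, with TBCE, a tubulin cofactor, at 1.59 (0.92 with its transcripts summed) and PDCL, a phosducin-like partner of CCT, at -1.84. The 8 tested of 13 cyclophilins had a median of 0.19, PPIB included, with PPIL4 at -1.43.

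**Figure D5:**
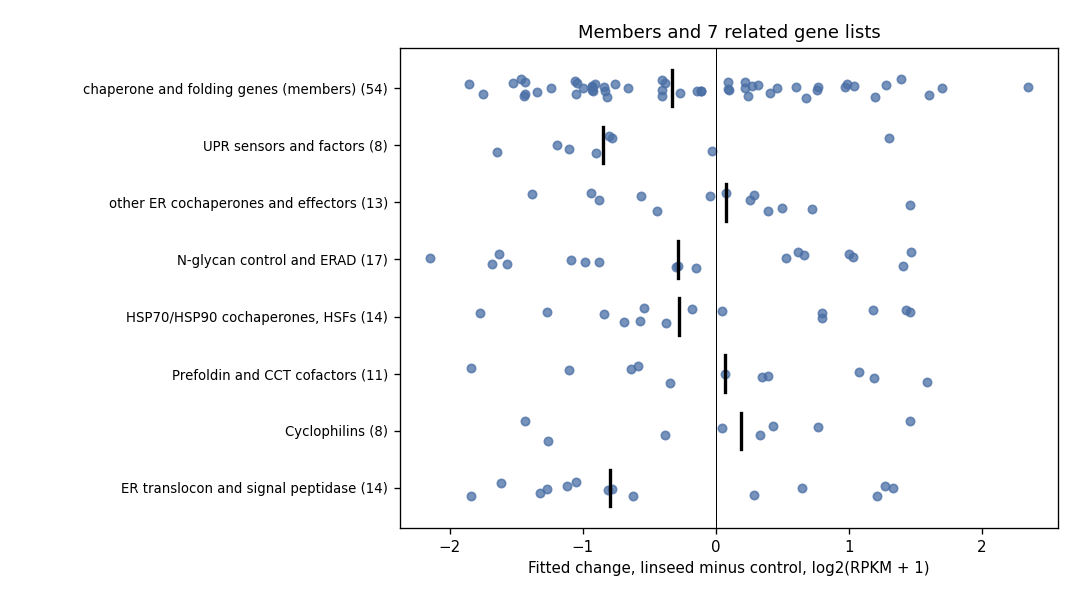
Fitted log2 change (x axis, linseed minus control, log2(RPKM + 1)) of each tested gene in the members and in 7 related lists, with the number of tested genes in brackets and the median as a black bar. The medians of the sensors and transcription factors of the unfolded protein response (-0.85) and of the translocon and signal peptidase (-0.80) lie furthest left, and every list holds genes on both sides of 0.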

How the data were processed

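The authors deposited 1 table of RPKM values for 49705 RefSeq transcripts in 6 libraries, with decimal commas. The submitters' processing notes name Trimmomatic 0.33, a read trimmer. No aligner, counter or genome build was given in the sources used here. A RefSeq gene table (assembly ARS-UI_Ramb_v3.0) gave symbols to 15836 transcripts (31.9%), matched without version. Totals per library and lengths per transcript were worked out from the RPKM steps (tolerance 0.002 reads), and the recovered reads summed to 97.87% to 99.5% of the totals; 1 read on 2000 nt was worth 0.0221 to 0.101 RPKM. Samples were grouped by title. The p values rest on these 3 sheep: on the spread of libraries within a diet without the block, and of the changes within sheep with it. In each fit limma also drew a transcript's variance toward a trend over all tested transcripts. The 15891 transcripts whose mean reached 1 RPKM were tested with limma 3.58.1 (R 4.3.3) on log2(RPKM + 1) with a trended prior variance, and p values were adjusted over all of them by Benjamini-Hochberg, at an adjusted p of 0.05. A log2 change on this scale understates the change of low transcripts. On simulated data the fit called known changes at a spread below that of the libraries and called none at their own spread, so a call that is missing does not show that a gene did not differ. The same animal identifiers stand in both groups, so the sheep pair the libraries; deviations of paired libraries correlated at 0.18, 0.25 and 0.40, and control sheep 1 correlated at 0.24 with linseed sheep 2. The fit without a block is the one reported, with blocked values beside it where they bear on a call. Length was corrected by a loess on log length in each library. The genes named were HSPA5, any member called, the most abundant member and the 2 of smallest p in each role, and the 2 of smallest p in each list; the other members were described after their values were seen. The members and lists were chosen with earlier results of these data known. Their protein and promoter sequences are not analysed here.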

Additional observations from a re-analysis of the deposited data

How the results depend on the processing

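No member passed without a block under any other setting run, and 1 did with the sheep as a replicate block; in the 7 lists 1 gene passed with that block and none without it, and the block changed no other call among the members and these lists. With length correction added to the block, no member was called. With milk proteins left out of the totals the members' median log2 change was -0.83 (all tested transcripts -0.52), 3 members lay above without overlap (5.56%, against 7.23% of all) and 13 below (24.1%, against 18.3%). Without a filter 8 lay below (11.3%, against 7.17%), and with quantile normalization 12 (22.2%, against 11.4%). Leaving out 1 library or sheep gave a median of -0.53 to 0.12 (positive without linseed sheep 1), 9 to 14 members above without overlap (14 without linseed sheep 1, sheep 1 or sheep 2), 4 to 24 below (22 without linseed sheep 3, 24 or 44.4% without sheep 3, against 29.9% of all, 7 without linseed sheep 2, 9 without sheep 2), and 0 to 0 called. The cause was not tested, save that fewer libraries make non-overlap easier. Of 37 named genes, 34 kept their direction under every alternative run: 20 for 32 of the 37, and 19 for EDEM3, EIF2AK3, PDCL, PPIL4 and TBCE, which lie under the minimum of 5 RPKM. CCT3 was at -0.14 with milk proteins left out. DNAJB1 (0.10) was at -0.50 with milk proteins left out, at -0.39 with quantile normalization, at -0.08, -0.50 and -0.34 without control sheep 1, linseed sheep 2 and sheep 2, and at up to 0.42 (without sheep 3) otherwise. DNAJC3 was at 0.04 with length correction, with or without the replicate block, at 0.09 and 0.15 without control sheep 1 and sheep 1, and at down to -0.92 (without control sheep 3) otherwise. DESeq2 was not run, since the table holds no raw counts. With 3 sheep and totals that differ 4.58-fold, differences in the members below 1 RPKM were not tested.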
